A study of Mus musculus with 12 samples.

Results

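The neutrophil granule genes *Mpo*, *Elane*, *Prtn3*, *Ltf*, *Camp*, *Ngp*, *Lcn2*, *Mmp8*, *S100a8*, and *S100a9* were read out by symbol in the gene counts of all 12 libraries, and make up 10 of the 26608 genes listed. They were chosen with their counts in these libraries already known, so their own values are given as a description, without a test. They were sorted by the stage of neutrophil maturation at which their transcripts are known to peak into primary (*Mpo*, *Elane*, *Prtn3*), secondary (*Ltf*, *Camp*, *Ngp*, *Lcn2*), and late (*Mmp8*, *S100a8*, *S100a9*) genes. The RNA came from CD4+ YFP(FOXP3)- T cells, that is, helper T cells without the reporter of the Treg factor FOXP3, sorted from spleen pooled with cervical and inguinal lymph nodes. Each library was 1 mouse aged 14 weeks, with 4 mice in each of 3 groups. WT were labelled Foxp3Cre WT, and DKO-moderate and DKO-severe were both Foxp3-Cre Tet2/3fl/fl mice. The study told the DKO groups apart by the total leukocyte number of spleen and lymph nodes, so they share a genotype and differ by a measured outcome. The promoter of *Foxp3* drives the Cre, so that deletion of *Tet2* and *Tet3* is directed to cells with a history of *Foxp3* expression. The study describes this Cre as leaky at a low level in blood cell development, so that precursors of other lineages may also have lost the genes. By flow cytometry of the same pooled organs it also reports more neutrophils in DKO-severe mice.

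Neutrophils load their granules in order as they mature in the bone marrow. Promyelocytes make the proteins of the primary, or azurophil, granules and then shut these genes off, myelocytes and metamyelocytes make those of the secondary, or specific, granules, and gelatinase granules and abundant cytosolic proteins such as S100A8 and S100A9 follow toward the mature cell. Blood and tissue neutrophils therefore hold the primary granule proteins but little of their mRNA. T helper cells are not known for any of these products.

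The promoters of the 10 genes are described first because the factors that drive them differ by stage. PU.1 and C/EBPα act on primary granule genes and C/EBPε on secondary ones. In the 250 bases before the RefSeq start of each gene (GRCm38.p6), GAGGAA, the core of a PU.1 site, was searched on both strands, as was TTNNGCAA, the core of a C/EBP site. The 2 motifs share no position in the matches found. GAGGAA was found in 7 of the 10 members, against 23.3% of 32851 promoters of the same length, and all 3 primary genes held it on the strand of the gene. *Ltf*, *Lcn2*, *Mmp8*, and *S100a8* held it on the opposite strand, so it was not confined to primary genes. TTNNGCAA was found in 5 of the 10, against 9.56% of all promoters. The 5 were *Ltf*, *Ngp*, *Lcn2*, *Mmp8*, and *S100a9*, and none was primary. *Camp* held neither motif. The letters searched do not tell a site of C/EBPα from one of C/EBPε. The motifs were chosen after the sequences had been seen, and a match is a description of letters, not of binding. The windows of 4 genes are shown, those of the primary genes for GAGGAA and that of *Ngp*, the secondary gene with the most reads, for TTNNGCAA. The part of each window before the first exon that GENCODE places in it is printed 5′ to 3′, with the matches in capitals. For *Prtn3* this stretch starts 4.941 kb after the start of the GENCODE gene, between annotated exons, and for the other 3 genes it precedes the gene.
Mpo, chr11:87793534-87793580, plus strand: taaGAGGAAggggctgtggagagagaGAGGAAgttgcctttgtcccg
Elane, chr10:79886062-79886246, plus strand: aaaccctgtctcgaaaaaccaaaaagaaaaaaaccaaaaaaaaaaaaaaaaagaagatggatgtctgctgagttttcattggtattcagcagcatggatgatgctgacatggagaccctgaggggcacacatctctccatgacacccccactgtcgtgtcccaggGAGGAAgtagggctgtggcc
Prtn3, chr10:79879417-79879613, plus strand: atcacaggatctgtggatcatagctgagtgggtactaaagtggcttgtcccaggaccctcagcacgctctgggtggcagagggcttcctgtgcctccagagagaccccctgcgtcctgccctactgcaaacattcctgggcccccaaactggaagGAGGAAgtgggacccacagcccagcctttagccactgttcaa
Ngp, chr9:110419558-110419746, plus strand: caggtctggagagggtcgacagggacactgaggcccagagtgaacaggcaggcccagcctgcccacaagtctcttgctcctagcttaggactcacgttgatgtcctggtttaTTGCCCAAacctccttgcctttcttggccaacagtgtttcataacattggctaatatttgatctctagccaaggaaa
The *Ngp* window held a second match to TTNNGCAA inside the annotated exon, which is not printed. *Prtn3* and *Elane* lie next to each other on chromosome 10, with 3.073 kb between the end of the one and the start of the other. *S100a8* and *S100a9* are 22.597 kb apart on chromosome 3, and *Camp*, *Ngp*, and *Ltf* lie within 1195.388 kb on chromosome 9. Stage and position thus coincide in part, while *Mpo* on chromosome 11, *Lcn2* on chromosome 2, and *Mmp8* on chromosome 9 lie away from the other members of their stage.

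The libraries held between 29254260 and 42133536 reads on genes, so that 3 reads, the one-sided 95% limit of a count of 0, correspond to between 0.0714 and 0.0973 CPM, counts scaled to 1000000 reads. CPM were scaled with the trimmed mean of M values, and intervals on single libraries are 95% and cover counting error only. The 7 T cell genes of the marker list, such as *Cd3e* and *Cd4*, summed to 4380 to 5090 CPM in WT and 4890 to 5260 CPM in DKO-moderate. In DKO-severe they summed to 3780 to 4270 CPM, below every library of the other groups. *Tet2* was at 43.3 to 62.2 CPM in WT and 56.7 to 65.8 CPM in DKO-severe, and *Tet3* at 167 to 210 CPM and 87.8 to 102 CPM. These whole-gene counts do not check a deletion that only some cells carry. The labels give no batch, date, or sex for the libraries. WT 3 stood apart within its group, with 163 CPM summed over the B cell markers against 1.18 to 2.71 in the other WT libraries.

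All 4 WT libraries were nearly empty of primary granule transcripts, and both DKO groups had them. *Mpo*, which encodes myeloperoxidase, had 0, 1, 0, and 0 reads in WT 1 to 4, 5, 82, 12, and 237 in DKO-moderate 1 to 4, and 136, 98, 29, and 28 in DKO-severe 1 to 4. *Elane*, the gene of neutrophil elastase, had 0 reads in all 4 WT libraries, 0, 14, 0, and 55 in DKO-moderate, and 78, 69, 7, and 7 in DKO-severe. *Prtn3*, which encodes proteinase 3, another serine protease of the primary granule, had 1, 0, 0, and 0 reads in WT, 1, 21, 3, and 61 in DKO-moderate, and 150, 120, 22, and 32 in DKO-severe. The same 2 DKO-moderate libraries, 2 and 4, were high for all 3 genes, and DKO-moderate 4 had more *Mpo* reads than any DKO-severe library.

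*Mpo* was the only member whose mean was highest in DKO-moderate, at 2.32 ± 2.86 CPM (SD, n = 4) against 2.19 ± 1.84 CPM in DKO-severe, and these ranges overlapped. *Elane* averaged 1.24 ± 1.25 CPM (SD, n = 4) in DKO-severe and 0.475 ± 0.687 in DKO-moderate. *Prtn3* averaged 2.45 ± 2.15 and 0.595 ± 0.74 CPM, and these ranges overlapped too. Summed over the group and scaled, *Elane* was at least 21.4-fold higher in DKO-moderate and at least 49.9-fold higher in DKO-severe than the 3 reads that 0 in WT allows. Against the single WT read of *Mpo*, the ratio was 313 (interval 55.8 to 12400) in DKO-moderate and 271 (48.2 to 10700) in DKO-severe. *Mpo* was also the only member for which every DKO-moderate library was above every WT library. The members were chosen on such values, and beside that 1 of 10, 14.6% of the 16035 genes tested had every DKO-moderate library above every WT library, and 10.2% every one below.

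Secondary granule transcripts were abundant in DKO-severe 1 and 2, present in DKO-severe 3 and 4, and at the edge of detection in DKO-moderate. *Ltf*, the gene of the iron-binding protein lactoferrin, had 12415, 4997, 178, and 65 reads in DKO-severe 1 to 4. In DKO-moderate 1 to 4 it had 0, 6, 0, and 0 reads, and in WT 1 to 4 0, 0, 7, and 0. *Ngp*, which encodes neutrophilic granule protein, a relative of the cystatins, had 16527, 5990, 242, and 91 reads in DKO-severe, 0, 21, 0, and 2 in DKO-moderate, and 2, 0, 15, and 0 in WT. *Ngp* was the secondary gene with the most reads in every DKO-severe library. *Camp*, the gene of the antimicrobial peptide cathelicidin, had 3653, 1443, 58, and 28 reads in DKO-severe, 0, 5, 0, and 0 in DKO-moderate, and 0, 0, 3, and 0 in WT. *Lcn2*, which encodes lipocalin 2, a protein that sequesters bacterial siderophores, had 6219, 2416, 77, and 32 reads in DKO-severe, 0, 6, 0, and 5 in DKO-moderate, and 0, 0, 7, and 0 in WT. For all 4 secondary genes the lowest DKO-severe library exceeded each DKO-moderate and WT library, while the DKO-moderate and WT ranges overlapped. WT 3 and DKO-moderate 2 held most of the few reads in their groups.

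The ratio of the summed DKO-severe reads to those of WT was 2350 (interval 1140 to 5840) for *Ltf*, 1250 (781 to 2150) for *Ngp*, 1610 (550 to 7790) for *Camp*, and 1160 (564 to 2890) for *Lcn2*. For DKO-moderate against WT the same ratio was 0.798 (0.222 to 2.77) for *Ltf*, 1.26 (0.644 to 2.51) for *Ngp*, 1.55 (0.302 to 9.99) for *Camp*, and 1.46 (0.518 to 4.45) for *Lcn2*. All 4 of these intervals include 1, but the ratios turn on 1 library of each group. Over the 4 genes DKO-moderate had 45 and WT 34 reads, a ratio of 1.23 (0.772 to 1.98). Without WT 3, which left 2 WT reads, it was 15.6 (4.08 to 133), without DKO-moderate 2, which left 7 DKO-moderate reads, 0.244 (0.0914 to 0.56), and without both 3.1 (0.59 to 30.6). No direction between DKO-moderate and WT is therefore given for the secondary genes. The ratio of DKO-severe to WT over the 4 genes was 1490 (1070 to 2150), 18900 (5230 to 156000) without WT 3, 540 (386 to 780) without DKO-severe 1, and 37.1 (26.3 to 54.0) without DKO-severe 1 and 2. The means of *Ltf* were 0.0473 CPM in DKO-moderate and 0.0503 CPM in WT, and their order turned when library size alone was used for scaling. The order of the group means stayed the same for the other 9 members.

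The late genes followed the secondary ones. *S100a8* and *S100a9*, whose products pair to form calprotectin, the main cytosolic protein of neutrophils, had 13550, 5547, 172, and 82 and 15203, 6169, 228, and 75 reads in DKO-severe 1 to 4. In DKO-moderate 1 to 4 *S100a8* had 0, 27, 0, and 15 reads and *S100a9* 1, 40, 0, and 4. In WT 1 to 4 they had 0, 0, 15, and 0 and 0, 0, 9, and 0 reads. For both genes the lowest DKO-severe library exceeded all others outside its group. *Mmp8*, the gene of neutrophil collagenase, had far fewer reads, 702, 270, 12, and 17 in DKO-severe, 0, 11, 1, and 6 in DKO-moderate, and 0, 2, 15, and 0 in WT. It was the only member whose DKO-severe and WT ranges overlapped, since WT 3 was at 0.431 CPM and DKO-severe 3 at 0.286 CPM. The summed reads of DKO-severe were 1200 (interval 727 to 2140) times those of WT for *S100a8*, 2240 (1180 to 4900) for *S100a9*, and 54.8 (34.0 to 94.4) for *Mmp8*. In DKO-moderate the ratio to WT was 2.61 (1.42 to 5.06) for *S100a8* and 4.65 (2.25 to 10.8) for *S100a9*. These intervals exclude 1 in counting error, but the libraries of the 2 groups overlapped. *Mmp8* had a ratio of 0.986 (0.479 to 2.04). Over the 3 late genes the ratio of DKO-moderate to WT was 2.38 (1.65 to 3.51), 36.5 (9.85 to 305) without WT 3, 0.781 (0.462 to 1.3) without DKO-moderate 2, and 12 (3.0 to 104) without both. In DKO-severe it was 954 (703 to 1330), 14600 (4040 to 120000) without WT 3, 361 (266 to 503) without DKO-severe 1, and 23.4 (17.0 to 33.0) without DKO-severe 1 and 2. For the primary genes the ratio of DKO-moderate to WT was 229 (62.9 to 1890), against 2 WT reads in all, and 86.4 (23.5 to 720) without DKO-moderate 4, which held 353 of the 491 reads. In DKO-severe it was 361 (99.6 to 2990), and 102 (27.7 to 854) without DKO-severe 1 and 2. Leaving out WT 2, which had 1 of the 2 WT reads, raised these ratios to 354 and 559.

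Over the 10 members, 9 were higher in every DKO-severe than in every WT library and 6 in every DKO-severe than in every DKO-moderate library. Over all 16035 genes, 24.6% had their lowest DKO-severe value above the highest in WT and 27.3% lay wholly below WT, and the shares were 9.77% and 11.6% against DKO-moderate. The choice of members used these contrasts, so nothing is read from the counts. The heat map of reads shows the 12 libraries side by side.

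**Figure D1:**
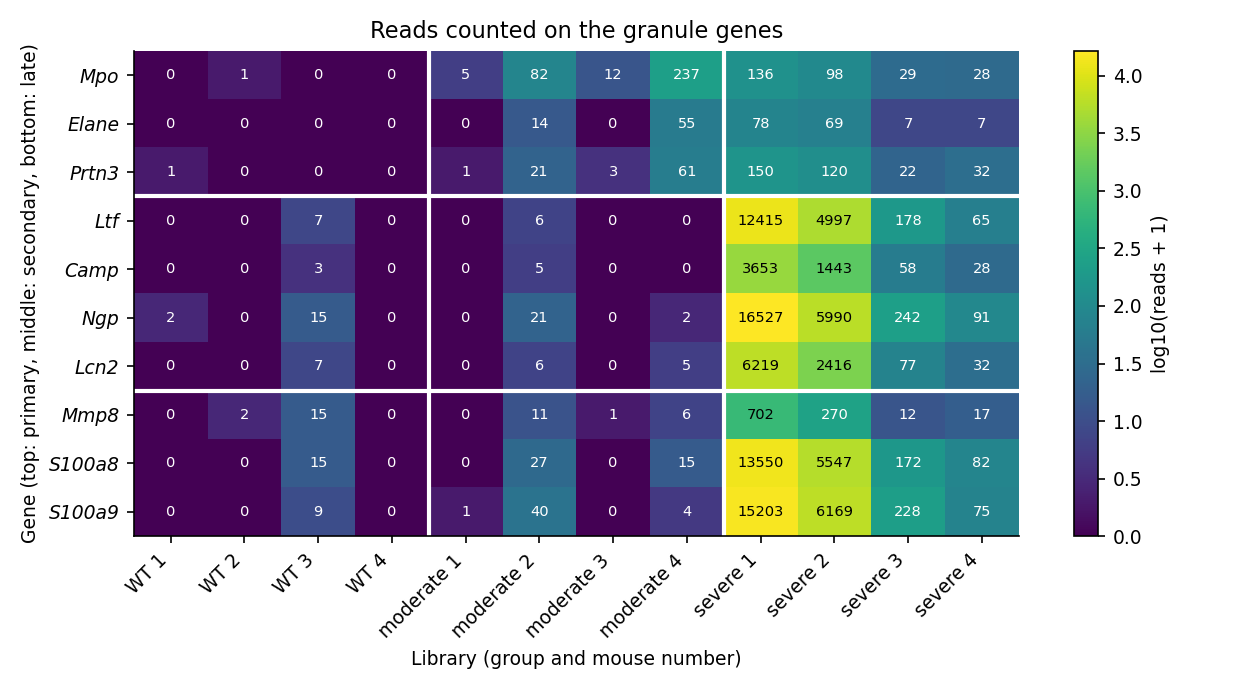
Reads counted on each of the 10 granule genes (rows, grouped as primary, secondary, and late from top to bottom) in each of the 12 libraries (columns), with the count printed in each cell and the color giving log10(reads + 1). DKO-severe 1 and 2 are bright for secondary and late genes, whereas DKO-moderate 4 is brightest for *Mpo*, with 237 reads, and has 0 reads of *Ltf* and *Camp*.

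Compared per kilobase of exon, the levels in DKO-severe 1 were in the order *S100a9* (945 CPM per kb), *S100a8* (634), *Ngp* (439), *Camp* (156), *Ltf* (117), *Lcn2* (76.9), *Mmp8* (9.39), *Prtn3* (2.81), *Elane* (2.57), and *Mpo* (1.29). All 3 primary genes came last. In DKO-moderate 4 the order began with the primary genes, *Mpo* at 1.83, *Elane* at 1.48, and *Prtn3* at 0.933 CPM per kb, ahead of *S100a8* at 0.573 and *S100a9* at 0.203. The exon lengths are those of GENCODE, which the authors' counting may not have used.

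The stages were then summed in each library. Primary genes took 91.7% (95% Clopper-Pearson interval 88.5 to 94.2) of the 385 granule gene reads of DKO-moderate 4 and 50.2% (43.6 to 56.8) of the 233 reads of DKO-moderate 2. They took 0.53% (0.477 to 0.588) of the 68633 reads of DKO-severe 1, 1.06% (0.94 to 1.19) of the 27119 of DKO-severe 2, 5.66% (4.32 to 7.25) of the 1025 of DKO-severe 3, and 14.7% (11.5 to 18.2) of the 457 of DKO-severe 4. The primary share was thus lower the more granule gene reads a DKO-severe library had, and these 4 intervals, of counting error, do not overlap. Secondary and late reads made up most of each of these totals and varied more than the primary reads. The fall of the share with the total therefore follows by construction. DKO-moderate 4 and DKO-severe 4 had similar totals, at 10.2 and 10.9 CPM summed over the 10 genes, but 353 and 67 primary reads, 7 and 216 secondary reads, and 25 and 174 late reads. The same total was thus made of different genes in these 2 libraries. DKO-moderate 1 and 3 had only 7 and 16 granule gene reads, of which 6 and 15 were primary. WT 3 had 71, with 32 secondary, 39 late, and 0 primary reads, which allows a primary share of up to 5.06%, and WT 4 had none.

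**Figure D2:**
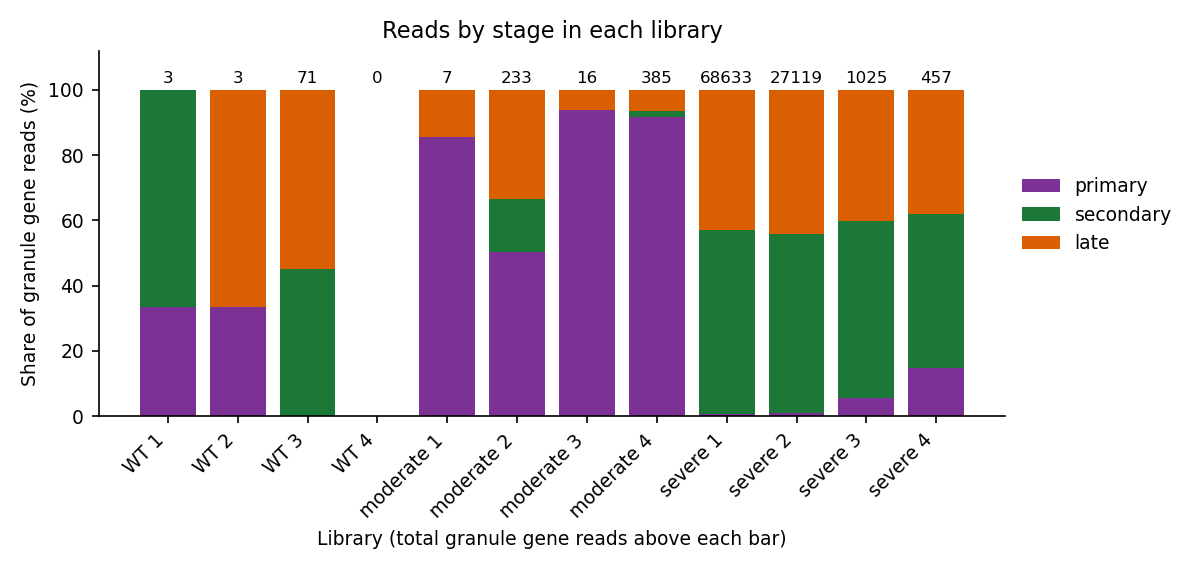
Share of granule gene reads (percent, y axis) from primary, secondary, and late genes in each library (x axis), with the total number of granule gene reads above each bar. Bars with few reads, such as WT 1 and WT 2 with 3 reads each, carry little information, and WT 4 had no read.

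The log2 ratio of primary to secondary reads, each sum raised by 1 read, was 1.6, 2.81, 4.0, and 5.47 in the DKO-moderate libraries in rising order and -1.67, -3.24, -5.69, and -6.73 in DKO-severe 4, 3, 2, and 1. It averaged 3.47 ± 1.66 (SD, n = 4) in DKO-moderate and -4.33 ± 2.3 in DKO-severe, so that the groups lay on opposite sides of 0 with no overlap. In WT it was -1.16 ± 2.67 (SD, n = 4), from -5.04 in WT 3 to 1.0 in WT 2, and rests on counts of 2 reads or fewer outside WT 3, without which the mean was 0.14. The ratio of secondary to late reads held a narrow range in DKO-severe, between 0.31 and 0.43 on the log2 scale, with a mean of 0.36 ± 0.06 (SD, n = 4), although the number of secondary reads ran from 216 to 38814. It was -1.18 ± 0.35 (SD, n = 4) in DKO-moderate, where 2 of the 4 libraries had no secondary read. Per kilobase of exon this ratio was -1.0 in DKO-severe, where the exons of *S100a8* and *S100a9* add to 694 and 522 bases, and with *Mmp8* alone as the late gene it was 0.22 in DKO-moderate. Both values have the opposite sign, so the sign of the secondary to late ratio depends on how the genes are summed.

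**Figure D3:**
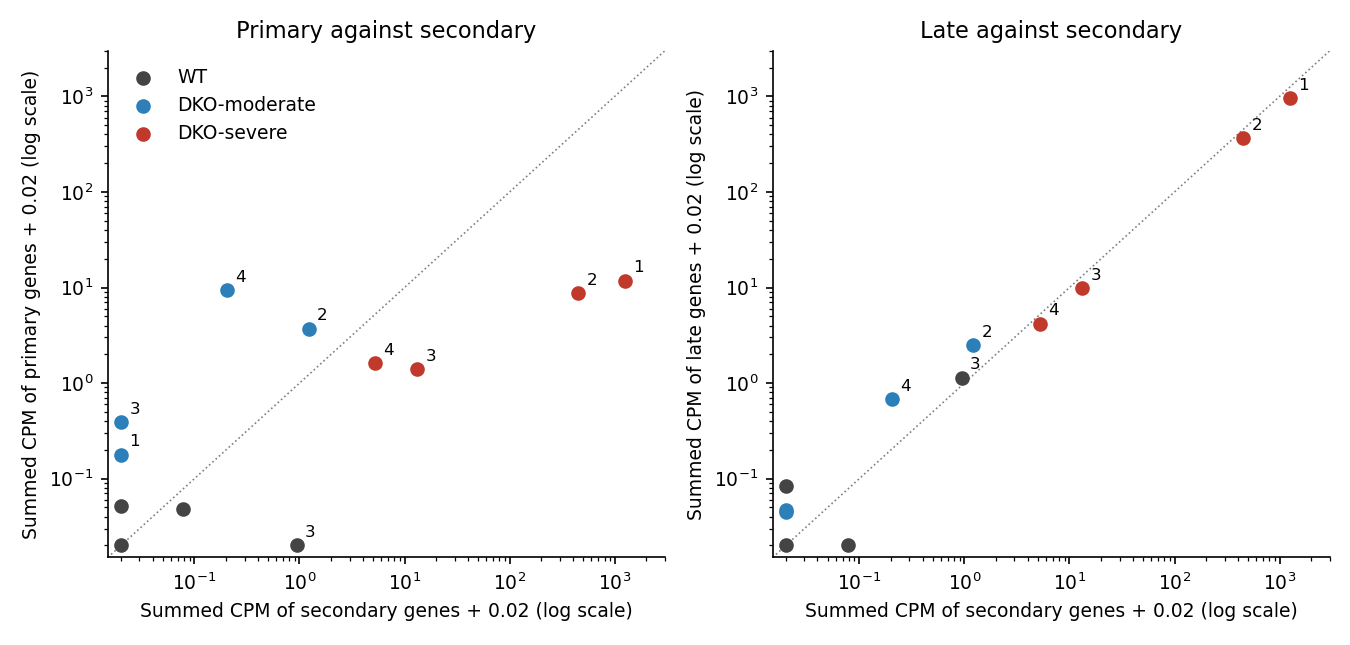
Summed CPM of primary genes (left) and late genes (right) against the summed CPM of secondary genes, 1 point per library, with 0.02 CPM added and both axes on a log scale. Numbers give the library within its group where either sum is above 0.1 CPM, and the dotted line marks equal values. Late and secondary sums lie close to the line, whereas DKO-moderate 2 and 4 lie above it and all DKO-severe libraries below it for primary genes.

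Within DKO-severe the stages spanned different ranges. DKO-severe 1 had 8.55 times (interval 6.47 to 11.5) the primary CPM of DKO-severe 3, but 95.3 times (87.7 to 104) its secondary and 97.5 times (88.4 to 108) its late CPM. Against DKO-severe 4 the ratios were 7.37 (5.66 to 9.71), 244 (213 to 280), and 229 (198 to 268). Against DKO-severe 2 they were 1.35 (1.15 to 1.58), 2.79 (2.73 to 2.84), and 2.62 (2.56 to 2.68). In all 3 pairs the interval of the primary ratio lay below those of the secondary and late ratios, which overlapped each other in the pairs with DKO-severe 3 and 4 and not in that with DKO-severe 2.

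Each member of a stage showed the range of its stage, with *Mmp8* as the exception. Between DKO-severe 1 and 4 the ratios were 6.58 for *Mpo*, 15.1 for *Elane*, and 6.35 for *Prtn3*. They were 259 for *Ltf*, 177 for *Camp*, 246 for *Ngp*, and 263 for *Lcn2*, and 224 for *S100a8* and 275 for *S100a9*. *Mmp8* was at 56.0 (34.7 to 96.7), below the interval of every secondary and other late gene and above those of *Mpo* and *Prtn3*. Between DKO-severe 1 and 3, *Mmp8* at 79.7 (45.4 to 155) did not stand apart from *Ltf* at 95.1 (82.0 to 111) or *S100a8* at 107 (92.4 to 126).

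**Figure D4:**
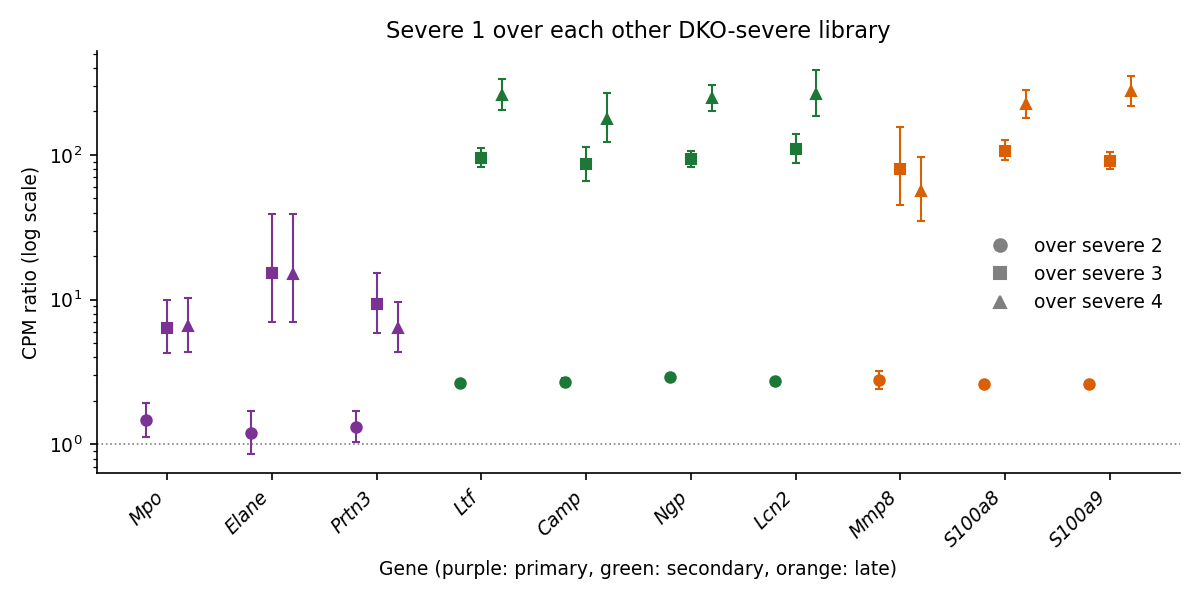
Ratio of the CPM in DKO-severe 1 to that in DKO-severe 2 (circles), 3 (squares), and 4 (triangles) for each granule gene, on a log scale, with 95% intervals from the counts. Primary genes (purple) lie at or below 15.2 in all pairs, whereas secondary (green) and late (orange) genes reach 56.0 to 275 against DKO-severe 4.

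DKO-moderate 4 and DKO-severe 1 had similar primary sums, at 9.35 and 11.8 CPM, a ratio of 0.792 (interval 0.682 to 0.919). Their secondary sums were 0.185 and 1260 CPM, a ratio of 0.000147 (5.92e-05 to 0.000303). Within the primary stage the 3 genes differed, since DKO-moderate 4 was above DKO-severe 1 in *Mpo*, with a ratio of 1.42 (1.15 to 1.77), and below it in *Elane*, with 0.576 (0.4 to 0.823), and *Prtn3*, with 0.332 (0.242 to 0.45). None of these intervals includes 1. Between DKO-moderate 4 and 2 the ratios were alike, at 2.43 (1.88 to 3.16) for *Mpo*, 3.3 (1.81 to 6.43) for *Elane*, and 2.44 (1.47 to 4.22) for *Prtn3*.

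The makeup of the primary reads differed between DKO-moderate 2 and 4 and the 4 DKO-severe libraries, which were the libraries with 58 or more of them. *Mpo* took 70.1% (interval 60.9 to 78.2) and 67.1% (62.0 to 72.0) of the primary reads of DKO-moderate 2 and 4. In DKO-severe 1 to 4 it took 37.4% (32.4 to 42.6), 34.1% (28.7 to 39.9), 50.0% (36.6 to 63.4), and 41.8% (29.8 to 54.5). *Prtn3* took 17.9% and 17.3% in DKO-moderate 2 and 4 and 41.2%, 41.8%, 37.9%, and 47.8% in DKO-severe 1 to 4. For both genes the shares of DKO-moderate 2 and 4 lay outside the DKO-severe range. *Elane* took at most 15.6% in DKO-moderate 2 and 4 and 10.4% to 24.0% in DKO-severe. The *Mpo* interval of DKO-severe 3 overlapped those of DKO-moderate 2 and 4. Its *Prtn3* interval (25.5 to 51.6) overlapped that of DKO-moderate 2 (11.5 to 26.1). Whether these shares differ beyond the spread between mice was not tested, since 2 DKO-moderate libraries had too few primary reads to give one.

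The makeup of the secondary reads was alike across the 4 DKO-severe libraries. *Ngp* took 40.3% to 43.6% of them, *Ltf* 30.1% to 33.7%, *Lcn2* 13.9% to 16.3%, and *Camp* 9.41% to 13.0%. *S100a9* took 43.1% to 55.3% and *S100a8* 41.7% to 47.1% of the late reads. *Mmp8* took 2.38% (2.21 to 2.56), 2.25% (1.99 to 2.53), 2.91% (1.51 to 5.03), and 9.77% (5.8 to 15.2) of the late reads of DKO-severe 1 to 4, and 14.1% (7.26 to 23.8), 24.0% (9.36 to 45.1), and 38.5% (23.4 to 55.4) in DKO-moderate 2, DKO-moderate 4, and WT 3. Its share was thus higher in the libraries with 25 to 174 late reads than in those with 412 or more.

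Other genes of the granulocyte lineage were listed by role, again with earlier results of these counts known, and tested in edgeR (quasi-likelihood, adjusted p-value under 0.05) among all 16035 genes. Over all genes 26.6% rose and 25.9% fell in DKO-severe against WT, 12.3% and 4.74% in DKO-moderate against WT, and 9.41% and 10.7% in DKO-severe against DKO-moderate. Of the 32 genes, 26 rose and 1 fell in DKO-severe against WT, with a median log2 fold change of 4.79, or 4.59 with genes at 0 in WT set to their lower bound, against a median of -0.005 over all genes. In DKO-moderate against WT 6 rose and 0 fell (0 also at an unadjusted p under 0.05 and in DESeq2), with a median of -0.01 against 0.0 over all genes. With the 2 groups fitted alone 5 rose and *Cd177* fell, by a log2 fold change of -1.83 (adjusted p = 0.0174, edgeR). In DKO-severe against DKO-moderate 18 rose and 0 fell (0 by the same other criteria), with a median of 4.13 against -0.027. The last 2 comparisons share DKO-moderate, and the first 2 share WT. Leaving out DKO-moderate 1 or 3 lowered the 18 to 11, and leaving out DKO-severe 1 lowered it to 12.

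By role, in DKO-moderate against WT, of 3 other primary granule genes 2 rose, of 8 other secondary genes 1, and of 15 late and mature neutrophil genes 0. These counts were the same in DESeq2, and were 3, 1, and 0 at an unadjusted p under 0.05. In DKO-severe against WT 3, 8, and 11 of them rose, and in DKO-severe against DKO-moderate 1, 6, and 9. *Ctsg*, the gene of cathepsin G, a further protease of the primary granule, had 0 reads in WT, 1, 30, 2, and 87 in DKO-moderate, and 22, 32, 5, and 18 in DKO-severe, so that DKO-moderate 4 was again the highest library. *Ctsg* was at least 37.2-fold higher than WT in DKO-moderate (edgeR adjusted p = 0.0275) and at least 23.9-fold in DKO-severe (edgeR adjusted p = 0.0143). The call in DKO-moderate was lost without WT 1, 2, or 4 or without DKO-moderate 2 or 4, each in turn, and with the 2 groups fitted alone (edgeR adjusted p = 0.0537 to 0.0616). *Prss57*, which encodes a serine protease of azurophil granules, had 12, 7, 5, and 19 reads in DKO-moderate, 143, 50, 168, and 40 in DKO-severe, and 2 in all of WT. Its log2 fold change against WT was 4.04 (standard error [SE] 0.87 and adjusted p = 0.00833 in edgeR) in DKO-moderate and 7.28 (SE 0.86 and adjusted p = 3.87e-05 in edgeR) in DKO-severe. *Prss57* was at 4.0 CPM in DKO-severe 3 and 1.52 CPM in DKO-severe 2, where the sums of the primary members were 1.38 and 8.74 CPM. It thus ordered these 2 libraries opposite to the primary members. *Ms4a3*, a membrane protein gene of granulocyte and monocyte progenitors, had 0 reads in WT, 2 and 20 in DKO-moderate 2 and 4, and 54, 27, 7, and 7 in DKO-severe, where it was called (edgeR adjusted p = 0.0134), while in DKO-moderate it was not (edgeR adjusted p = 0.131).

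Of the other secondary and of the late genes, the 3 with the highest mean level are given. *Pglyrp1*, which encodes a peptidoglycan recognition protein, was at 14.4 to 19.7 CPM in WT, 29.7 to 49.0 CPM in DKO-moderate, and 63.2 to 121 CPM in DKO-severe. It was the 1 gene of the other secondary list that rose in DKO-moderate (log2 fold change 1.24, SE 0.21 and adjusted p = 0.0022 in edgeR). *Pglyrp1* had 722 reads in WT 4, which had no read of any member, so its reads there came without those of the secondary members. *Itgam*, which encodes the integrin CD11b, was at 4.54 to 12.5 CPM in WT, 5.11 to 11.5 CPM in DKO-moderate, and 30.5 to 135 CPM in DKO-severe (log2 fold change against WT 3.5, SE 0.5 and adjusted p = 0.000128 in edgeR). DKO-severe 3 was at 86.2 CPM in *Itgam*, above DKO-severe 2 at 59.2 CPM, although it had far fewer granule gene reads. *Itgam* thus ordered these 2 libraries opposite to the members. *Chil3*, a chitinase-like protein gene, had 0, 0, 105, and 0 reads in WT, 2, 71, 5, and 89 in DKO-moderate, and 6012, 3231, 94, and 117 in DKO-severe (log2 fold change against WT 6.61, edgeR adjusted p = 0.00923). All WT reads of *Chil3* were in WT 3, without which the call was kept (edgeR adjusted p = 0.00771), while without both DKO-severe 1 and 2 it was lost (log2 fold change 1.75, edgeR adjusted p = 0.474). *Mmp9*, the gene of gelatinase B, had a log2 fold change of 1.28 (SE 0.36 and adjusted p = 0.011 in edgeR) and *Cd177*, a neutrophil surface protein gene, of 3.06 (SE 1.07 and adjusted p = 0.0302 in edgeR) in DKO-severe against WT. *Cd177* was at 2.3 to 4.17 CPM in WT and at 68.0 and 28.2 CPM in DKO-severe 1 and 2. DKO-severe 3 and 4, at 1.36 and 0.742 CPM, were below every WT library. The call of *Cd177* was lost without WT 1, 2, or 4 or without DKO-severe 1, and with the 2 groups fitted alone (edgeR adjusted p = 0.0569 to 0.147). *Csf3r*, the receptor gene for G-CSF, did not pass (log2 fold change 3.72, edgeR adjusted p = 0.0502), and passed without WT 3 (log2 fold change 7.5, edgeR adjusted p = 0.00313), without DKO-severe 3 or 4, or in DESeq2 (adjusted p = 0.0387).

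Of the transcription factors, *Cebpe*, which encodes C/EBPε, the factor of the secondary granule stage, had 140, 74, 7, and 6 reads in DKO-severe 1 to 4, 0 in all 4 DKO-moderate libraries, and 1 read in WT, in WT 3. The ratio of the summed reads of DKO-severe to those of WT was 211 (interval 37.5 to 8380), with an edgeR adjusted p of 0.00376. DKO-moderate 2, with 38 secondary reads, had 0 *Cebpe* reads. In DKO-severe 1 the 140 *Cebpe* reads stood beside 38814 secondary reads. At such a proportion 38 secondary reads are too few to expect a *Cebpe* read, so nothing is read from this 0. *Cebpa*, the factor of early granulocyte precursors, had 95, 84, 244, and 366 reads in WT 1 to 4, 413, 1748, 1294, and 1217 in DKO-moderate, and 1707, 1699, 1664, and 2643 in DKO-severe. It rose in DKO-moderate (log2 fold change 2.53, SE 0.5 and adjusted p = 0.00506 in edgeR) and in DKO-severe (log2 fold change 3.22, SE 0.51 and adjusted p = 0.000266 in edgeR). DKO-moderate 3 and 4 were alike in *Cebpa*, at 32.1 and 32.2 CPM, but DKO-moderate 3 had 15 primary reads against 353. *Cebpd* rose in both groups as well, by 4.44 on the log2 scale in DKO-moderate (adjusted p = 0.00331, edgeR) and by 5.17 in DKO-severe (adjusted p = 0.000282, edgeR). *Gfi1* rose by 0.51 (adjusted p = 0.0134, edgeR) and by 1.01 (adjusted p = 4.23e-05, edgeR). Both factors are also known outside granulocytes, and *Gfi1* was at 19.7 to 28.7 CPM in WT. *Cebpb*, a factor of emergency granulopoiesis, was the 1 gene that fell, by a log2 fold change of -0.68 from WT to DKO-severe (SE 0.21 and adjusted p = 0.0167 in edgeR). This call was lost with library size alone (edgeR adjusted p = 0.0753) and without WT 2 or DKO-severe 4. *Spi1*, which encodes PU.1, did not pass (log2 fold change 2.05, edgeR adjusted p = 0.228), with 0, 8, 295, and 4 reads in WT 1 to 4, and passed without WT 3 (log2 fold change 6.22, edgeR adjusted p = 0.0023).

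DKO-severe 1 and 2 weighed on these counts. Without both, a choice made after the values had been seen, 12 of the 32 genes passed in DKO-severe against WT, 10 of them higher, and 6 in DKO-severe against DKO-moderate. Without both DKO-moderate 2 and 4, 2 passed in DKO-moderate against WT.

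Markers of other cell types also differed between the libraries, and not all of them followed the granule genes. The 4 markers of basophils and mast cells, *Mcpt8*, *Cpa3*, *Fcer1a*, and *Ms4a2*, summed to 7.91 and 14.0 CPM in DKO-moderate 2 and 4, the DKO-moderate libraries with the most primary reads, against 0.213 and 0.348 CPM in DKO-moderate 1 and 3 and 0.0287 to 0.604 CPM in WT. In DKO-severe they summed to 6.94, 4.66, 0.762, and 2.23 CPM in libraries 1 to 4. *Mcpt8*, which encodes a basophil protease, had 183 and 376 reads in DKO-moderate 2 and 4 and 154, 118, 26, and 58 in DKO-severe. The primary sums of these libraries were 3.69 and 9.35 CPM and 11.8, 8.74, 1.38, and 1.6 CPM.

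**Figure D5:**
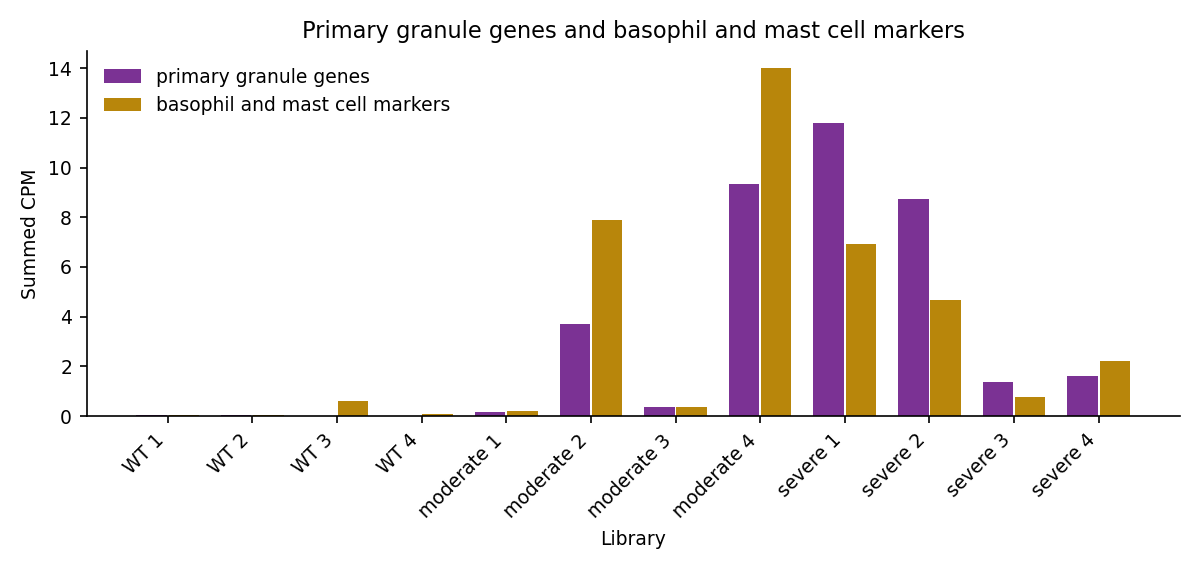
Summed CPM (y axis, linear) of the 3 primary granule genes and of the 4 basophil and mast cell markers in each library (x axis). Both sums are low in WT and in DKO-moderate 1 and 3. The marker sum is the larger in DKO-moderate 2 and 4, and the primary sum is the larger in DKO-severe 1, 2, and 3.

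The 6 neutrophil markers summed to 9.74 to 15.1 CPM in WT, 9.33 to 28.1 CPM in DKO-moderate, and 18.2 to 120 CPM in DKO-severe, and in WT and DKO-moderate most of this was *Mmp9*. *Ly6g*, the defining surface marker of mouse neutrophils, had 0 reads in WT, 0, 0, 1, and 1 in DKO-moderate, and 134, 69, 3, and 3 in DKO-severe. Of these 6 markers 5 had reads in WT and 5 in DKO-moderate, where *Cebpe* was at 0. The 8 monocyte and macrophage markers summed to 21.6 to 133 CPM in WT, 72.7 to 139 CPM in DKO-moderate, and 104 to 354 CPM in DKO-severe, and the 4 eosinophil markers to 0.259 to 3.82 CPM in WT, 0.691 to 5.58 CPM in DKO-moderate, and at least 3.42 CPM in DKO-severe, with the highest sum in DKO-severe 2. All members of both lists had reads in DKO-severe and DKO-moderate, and *Epx* had none in WT. The 5 B cell markers reached 163 CPM in WT 3, 46.4 CPM in DKO-severe 1, and 267 CPM in DKO-severe 2, and were at 2.13 to 3.12 CPM in DKO-moderate. The 5 erythroid genes found reached 46.9 and 44.8 CPM in DKO-severe 1 and 2, 19.9 CPM in WT 3, and 0.201 to 11.8 CPM in the others. The 3 plasma cell genes reached 191 and 181 CPM in DKO-severe 1 and 2 and 88.2 CPM in WT 3. WT 3, the WT library with secondary and late reads, was thus also the WT library with the highest B cell, plasma cell, erythroid, and monocyte sums. The 3 progenitor genes, *Cd34*, *Kit*, and *Flt3*, were highest in DKO-severe 4, at 30.4 CPM, and at 7.22 and 1.96 CPM in DKO-moderate 2 and 4, and *Cd34* had no WT read. Platelet genes were at 1.91 to 2.19 CPM in WT, 1.44 to 2.3 CPM in DKO-moderate, and 1.08 to 1.74 CPM in DKO-severe. The 2 CD8 genes ran the other way from the granule genes. They were at 16.8 to 26.7 CPM in WT, 3.13 to 8.52 CPM in DKO-moderate, and 1.03 to 13.2 CPM in DKO-severe. The part of other cells in the granule gene reads was not tested. In bulk RNA, more cells of a type and more RNA per cell cannot be told apart, nor can a transcript of the sorted T cells and one of a cell that passed the sort with them.

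The genes most like each stage across the 12 libraries were sought among 12699 genes with a mean of at least 0.5 CPM, by Pearson's r of log2 CPM after the group means had been subtracted. The libraries share depth and composition, so r is a description. For the primary genes the 8 closest were *Gnai1* (r = 0.947), *Rogdi* (0.934), *Prss34* (0.926), *Msra* (0.923), *Cnpy3* (0.918), *Ptpn7* (0.914), *Cpa3* (0.908), and *Ccdc115* (0.907). *Prss34* encodes a protease of mast cells and basophils and *Cpa3* the carboxypeptidase of mast cells, and *Prss34* was at 12.3 and 15.8 CPM in DKO-moderate 2 and 4, 0.174 to 0.266 CPM in DKO-moderate 1 and 3, and at most 8.76 CPM in DKO-severe. For the secondary genes they were *Pi16* (r = 0.952), *B4galt6* (0.949), *Eaf2* (0.944), *Clec5a* (0.943), *Dram1* (0.938), *Fcgr3* (0.936), *Chil3* (0.935), and *Dgat2* (0.929). For the late genes they were *Pi16* (r = 0.967), *Eaf2* (0.957), *B4galt6* (0.955), *Siglece* (0.955), *Chil3* (0.953), *Rab44* (0.95), *Clec5a* (0.948), and 1810033B17Rik (0.944). The secondary and late lists had *Pi16*, *B4galt6*, *Eaf2*, *Clec5a*, and *Chil3* in common, and the primary list had no gene in common with either. With the group means kept, differences between groups enter r as well. The 8 genes closest to the secondary genes were then *Eaf2* (r = 0.967), *Siglece* (0.954), *Ifitm6* (0.953), *Cebpe* (0.953), *Pi16* (0.952), *Fcnb* (0.951), *Itgam* (0.947), and *Clec5a* (0.945).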

How the data were processed

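Per the labels and the methods of the study, RNA was isolated with Direct-zol, strand-specific libraries were made with the NEBNext Ultra II Directional kit, and paired reads were aligned to mm10 with STAR 2.7.11, keeping uniquely mapped reads. The authors counted reads per gene with htseq-count, set for reverse-stranded libraries, and deposited raw counts per gene, 1 table per library. The gene annotation is not given in the sources used here. Reads not assigned to a gene, 18.53% to 23.73% of each table, were left out. The deposited counts were used without change.

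Genes with at least 10 reads summed over a condition (16035) were fitted over all 12 libraries with edgeR 4.0.16 (R 4.3.3), with the trimmed mean of M values, the quasi-likelihood test, and Benjamini-Hochberg adjustment. All 10 members passed the filter, in part through DKO-severe, where they are high. CPM are counts divided by the effective library size. Intervals on reads are exact Poisson or Clopper-Pearson, and ratios of 2 libraries or groups carry exact intervals for their counts, at 95%. The floor was 3 reads, a one-sided 95% limit, over the group for a group at 0. Positions and exon lengths are from GENCODE M21 and promoters from RefSeq, both on GRCm38, and all 10 members matched. Of 52 marker genes 51 were found and of the 32 other granulocyte genes all, 8 of them in all by an older symbol.

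The members, lists, and tests were chosen with earlier results of these data known, so the lists give no independent evidence. Named from each list were the 3 genes with the highest mean CPM, and all of the other primary genes and transcription factors, plus genes singled out after their values were seen (*Ly6g*, *Mcpt8*, *Epx*, *Cd34*). No libraries were alike within sampling noise (lowest chi-square per degree of freedom 22.86). Each library is 1 mouse. Alternatives were DESeq2 1.42.0, its size factors or library size alone, no filter, 10 reads in every library of a condition, the compared groups alone, the replicate number as a block, and leaving out libraries, and for the stage ratios other sums and a pseudocount of 10 in place of 1.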

Additional observations from a re-analysis of the deposited data

Results flagged for a closer look

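In groups of 4 libraries, the library farthest from the rest was looked at where its gap to the nearest of the others exceeded, as a share of the range of the group, Dixon's 95% critical value. This held in 17 of the 45 groups of values tested. The critical value is made for continuous values, whereas many of these groups are counts at or near 0, so no rate by chance is given. A single read in a group otherwise at 0 exceeds it by construction. The values are also not independent of each other, since most come from the same 3 libraries.

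WT 3 was the high library of its group for *Ltf* (0.201 CPM), *Camp* (0.0862), *Ngp* (0.431), *Lcn2* (0.201), *Mmp8* (0.431), *S100a8* (0.431), and *S100a9* (0.259), and for the secondary (0.92 CPM) and late (1.12 CPM) sums. DKO-moderate 2 was the high library of its group for *Ltf* (0.189 CPM), *Camp* (0.158), *Ngp* (0.662), and *S100a9* (1.26), and for the secondary sum (1.2 CPM). DKO-moderate 4 stood apart in the log2 ratio of secondary to late reads, at -1.7. DKO-moderate 1 and 3, at -1.0, had 0 secondary reads and 1 late read each, so the pseudocount set their ratios and the narrow range of the rest. *Mpo* in WT 2 (0.0323 CPM) and *Prtn3* in WT 1 (0.0287 CPM) stood apart by a single read each in a group otherwise at 0.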

How the results depend on the processing

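For the 32 other granulocyte genes, 27 passed in DKO-severe against WT, and 21 to 29 when 1 library at a time was omitted. The count was 13 of 16 genes tested with 10 reads in every library of a condition, a filter that removes genes, and 12 without both DKO-severe 1 and 2. In DKO-moderate against WT 6 passed, 5 to 6 with each library left out, and 2 without both DKO-moderate 2 and 4. In DKO-severe against DKO-moderate 18 passed, 11 to 21 with each library left out, 8 of 16 with the stricter filter, and 6 without both DKO-severe 1 and 2. The pairs were chosen after seeing the data. With the replicate block 20, 6, and 11 genes passed in the 3 comparisons. Same-numbered libraries correlated between -0.272 and 0.208 over 12 pairs (median -0.034, against 0.013 for different numbers), so the numbers were not taken to pair the mice. With the block the calls of *Chil3* (edgeR adjusted p = 0.0844) and *Cd177* (0.188) in DKO-severe against WT were lost.

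The log2 ratio of primary to secondary reads kept its sign in both DKO groups under every sum and when 1 library was omitted, at 2.8 to 4.09 in DKO-moderate and -5.22 to -3.53 in DKO-severe then. Over the sums it ran from 1.96 (pseudocount of 10) to 3.47 in DKO-moderate, where 2 libraries had no secondary read and the pseudocount sets their ratio, and from -4.57 to -3.82 in DKO-severe. The log2 ratio of secondary to late reads moved from -1.18 in DKO-moderate to -0.55 with a pseudocount of 10, -1.74 per kilobase, -0.24 with *Mmp8* counted as secondary, and 0.22 with *Mmp8* as the only late gene. In DKO-severe it moved from 0.36 to -1.0 per kilobase, 0.46 as a mean of log2 counts, 0.47 with *Mmp8* counted as secondary, and 5.14 with *Mmp8* as the only late gene. *Cd177* had -1.46 as its log2 fold change from WT to DKO-severe without both DKO-severe 1 and 2. The cause was not tested beyond what each sum changes. The pooled secondary and late ratios of DKO-moderate to WT fell below 1 without DKO-moderate 2 (0.244 and 0.781) and rose to 15.6 and 36.5 without WT 3, and all pooled ratios without a library were added after seeing the data. Totals of 16 or fewer granule gene reads limit WT 1, 2, and 4 and DKO-moderate 1 and 3.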
